A study of Mus musculus with 12 samples.

Results

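The secreted Wnt antagonists *Sfrp1*, *Sfrp2*, *Sfrp5*, *Frzb*, *Dkk1*, *Dkk2*, *Dkk3* and *Wif1* were examined in gastruloids embedded in hydrogels at different times and gel concentrations. These 8 genes, of 55141 in the count table, were chosen by name, with earlier results of these data known. All 8 were found by their Ensembl identifiers. Gastruloids, cultures in which embryonic stem cells lay down a body axis, were made from cells of 129/SVEV background, with 300 cells seeded per well, and every group received a 24 h pulse of 3 µM CHIR99021, a Wnt agonist, from 48 h after seeding. The 4 groups combined the time of embedding (72 h or 96 h) with the concentration of the dextran hydrogel (1.0 mM or 1.5 mM). All were collected at 120 h, so that the 72 h groups spent the longer time in the gel. Each group held 3 libraries of poly-A RNA, each a pool of about 30 gastruloids of the same cell line, and total counts per library ran from 23011791 to 27609422. No library from freely floating gastruloids is part of these comparisons.

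Wnt proteins signal by binding Frizzled receptors together with the co-receptors LRP5 and LRP6, which stabilises beta-catenin. The secreted Frizzled-related proteins, to which *Frzb* belongs, and *Wif1* bind Wnt proteins outside the cell, whereas *Dkk1* and *Dkk2* bind LRP5 and LRP6, and *Dkk3* is a divergent relative with a less settled role. In the embryo Wnt signals are strong at the posterior end, and antagonists are made in anterior tissues, among them the heart-forming mesoderm.

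Levels were compared between genes as FPKM, which the authors scaled to transcript length. *Sfrp1* was the most abundant antagonist, with a mean over the 12 libraries of 31.6 FPKM, ahead of *Frzb* at 20.5 FPKM, *Dkk1* at 14.7 FPKM and *Sfrp2* at 11.0 FPKM. *Sfrp5* followed at 4.29 FPKM, and *Wif1* (0.881 FPKM), *Dkk3* (0.393 FPKM) and *Dkk2* (0.0525 FPKM) were rare. *Dkk2* had 2 to 11 counts per library and did not pass the filter on low counts, so 7 of the 8 genes were tested. The summed FPKM of the 8 genes was 104 ± 3.78 (SD, n = 3) for the 72 h group and 60.8 ± 2.80 (SD, n = 3) for the 96 h group with 1.0 mM gels. In 1.5 mM gels the sums were 105 ± 0.851 (SD, n = 3) and 64.0 ± 9.24 (SD, n = 3). The lowest 72 h library (99.5) was above the highest 96 h library (70.2), and *Sfrp1*, *Frzb*, *Dkk1* and *Sfrp2* made up at least 87.0% of the sum in every library. Since these are bulk libraries, fewer cells of a type and less RNA per cell cannot be told apart.

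**Figure D1:**
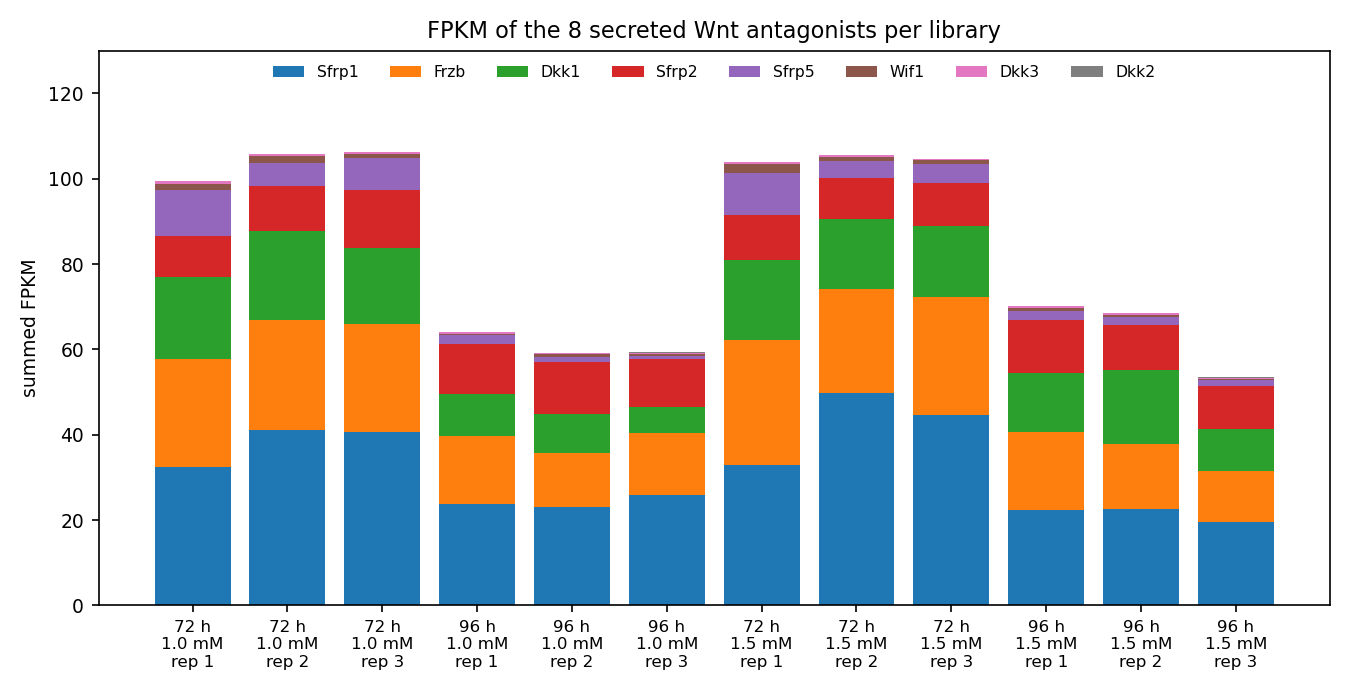
Stacked bars give the deposited FPKM of the 8 antagonists in each of the 12 libraries, with the embedding time, gel concentration and replicate number under each bar. The 6 bars of the 72 h groups reach 99.5 to 106 and the 6 bars of the 96 h groups 53.4 to 70.2, and *Sfrp1* is the largest segment in every bar.

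The promoters are shown because most of the 8 genes passed the test of embedding time in the same direction, while *Sfrp2* did not pass. RefSeq windows of 300 bases on GRCm38.p6, from 250 bases before the transcript start to 50 bases after it, were at hand for 6 of the 8 genes, all but *Sfrp1* and *Dkk3*. They were searched on both strands for CTTTGA, the core bound by TCF/LEF proteins, and AGATAA, a form of the GATA motif, both picked with the sequences in view. CTTTGA was found in the windows of *Frzb* and *Dkk1*, and AGATAA in that of *Sfrp5*, whereas the windows of *Sfrp2*, *Dkk2* and *Wif1* held neither. Of all 32851 promoter windows of this length, 16% held CTTTGA and 11.2% held AGATAA on either strand. No match overlapped another in the windows of these genes. The 250 bases before the start of *Sfrp5*, the gene with the largest difference between embedding times, lie at chr19:42202253-42202502 on the minus strand, and the capitals mark AGATAA at bases -236 to -231 and -180 to -175 from the start. The 250 bases before *Sfrp2*, at chr3:83766071-83766320 on the plus strand, have no capitals. Stretches of 30 bases around the matches in *Frzb* (chr2:80447474-80447503) and *Dkk1* (chr19:30549653-30549682 and chr19:30549596-30549625), all on the minus strand, carry the core or its reverse complement in capitals. They lie before the RefSeq start but, for these genes and for *Wif1*, GENCODE annotates an earlier start. The match in *Frzb* is at bases -95 to -90, and those in *Dkk1* are at -174 to -169 and -117 to -112. A match is a description of the letters only.
*Sfrp5* upstream: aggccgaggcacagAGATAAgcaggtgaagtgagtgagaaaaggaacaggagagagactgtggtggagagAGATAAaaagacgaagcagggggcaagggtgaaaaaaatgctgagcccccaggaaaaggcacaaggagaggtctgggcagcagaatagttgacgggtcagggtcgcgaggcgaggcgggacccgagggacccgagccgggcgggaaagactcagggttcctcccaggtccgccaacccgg
*Sfrp2* upstream: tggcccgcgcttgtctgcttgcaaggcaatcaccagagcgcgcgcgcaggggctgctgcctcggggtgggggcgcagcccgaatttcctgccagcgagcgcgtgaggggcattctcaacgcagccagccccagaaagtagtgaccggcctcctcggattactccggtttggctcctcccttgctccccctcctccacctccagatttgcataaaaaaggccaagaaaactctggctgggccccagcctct
*Frzb* match: tcccctgaaaacTCAAAGccttctcggaag
*Dkk1* upstream match: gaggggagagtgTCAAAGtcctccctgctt
*Dkk1* downstream match: ctcctcccaaagCTTTGAaatcccatcccg

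Among the secreted Frizzled-related genes, *Sfrp5* (ENSMUSG00000018822, mm10 chr19:42197971-42202252), known in the embryo from heart progenitors and foregut, had the largest difference between embedding times of the 7 genes tested. CPM values below are counts scaled by TMM-adjusted library totals, and fold changes are log2 values of 72 h over 96 h. With 1.0 mM gels, *Sfrp5* stood at 26.4, 14.1 and 18.9 CPM in replicates 1 to 3 of the 72 h group, and at 4.68, 3.09 and 1.88 CPM in those of the 96 h group. The 1.5 mM gels gave 26.9, 9.71 and 10.4 CPM after 72 h embedding and 5.32, 5.26 and 3.12 CPM after 96 h embedding. Every 72 h library was above every 96 h library, with replicate 1 highest in both 72 h groups. The difference was 2.63 in 1.0 mM gels (SE 0.30, 95% interval 1.97 to 3.29, edgeR adjusted p = 0.000476) and 1.77 in 1.5 mM gels (SE 0.39, 95% interval 0.89 to 2.65, adjusted p = 0.0156). In 1.5 mM gels, leaving out replicate 1 of the 72 h group gave 1.13 (adjusted p = 0.00415), and leaving out replicate 3 of the 96 h group gave 1.56 with an adjusted p of 0.066, which ended the call.

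*Sfrp1* (ENSMUSG00000031548, mm10 chr8:23411502-23449632), the most abundant of the family here, was also higher after the earlier embedding. Its values with 1.0 mM gels were 180, 236 and 229 CPM in replicates 1 to 3 of the 72 h group, against 131, 129 and 145 CPM at 96 h. In 1.5 mM gels the values were 202, 280 and 246 CPM at 72 h and 127, 138 and 108 CPM at 96 h. The libraries of the 2 embedding times were apart in both gels, and replicate 1 was the lowest of each 72 h group, where it was the highest for *Sfrp5*. The difference was 0.68 in 1.0 mM gels (SE 0.11, edgeR adjusted p = 0.00279) and 0.96 in 1.5 mM gels (SE 0.12, adjusted p = 0.0027).

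*Frzb* (ENSMUSG00000027004, mm10 chr2:80411970-80447625), which encodes sFRP3 and is known from developing cartilage, was higher after 72 h embedding in both gels. With 1.0 mM gels it stood at 102, 107 and 104 CPM in the 72 h group and at 64.0, 50.6 and 59.0 CPM in the 96 h group. The values with 1.5 mM gels were 130, 100 and 110 CPM and 75.7, 68.6 and 48.4 CPM. The libraries were again apart by embedding time in both gels. The difference was 0.86 in 1.0 mM gels (SE 0.09, edgeR adjusted p = 0.000289) and 0.82 in 1.5 mM gels (SE 0.16, adjusted p = 0.00916), close to each other in size.

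*Sfrp2* (ENSMUSG00000027996, mm10 chr3:83766321-83774316), a close relative of *Sfrp1*, had overlapping groups in every comparison. With 1.0 mM gels it stood at 25.0, 28.1 and 36.1 CPM in the 72 h group and at 31.2, 32.3 and 29.4 CPM in the 96 h group. The values with 1.5 mM gels were 30.1, 25.3 and 25.9 CPM and 33.4, 30.2 and 26.2 CPM. All 4 group means lay between 27.1 and 31.0 CPM, and no neighbours in that order were separated by their replicates. The difference was -0.05 in 1.0 mM gels (95% interval -0.34 to 0.24, edgeR adjusted p = 0.855) and -0.15 in 1.5 mM gels (95% interval -0.39 to 0.10, adjusted p = 0.373). *Sfrp2* is the only member that overlaps another annotated gene, *Gm26771* on the opposite strand, which had 0 to 10 counts per library.

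*Wif1* (ENSMUSG00000020218, mm10 chr10:121033960-121100650), whose product binds Wnt proteins through a WIF domain, was rare and varied more between replicates. With 1.0 mM gels it stood at 4.20, 4.45 and 2.50 CPM in the 72 h group and at 0.805, 1.69 and 1.07 CPM in the 96 h group. The values with 1.5 mM gels were 6.62, 2.67 and 2.84 CPM and 2.21, 1.97 and 1.36 CPM. Both gels kept the embedding times apart, and replicate 1 lay far above the other replicates of the 72 h group in 1.5 mM gels. The difference was 1.65 in 1.0 mM gels (SE 0.32, edgeR adjusted p = 0.00829). In 1.5 mM gels it was 1.12 (SE 0.37, 95% interval 0.29 to 1.95) with an adjusted p of 0.0613, whereas the blocked fit, which takes out the replicate number, gave 1.06 and passed (adjusted p = 0.0178). Without replicate 1 of the 72 h group it was 0.57 in 1.5 mM gels (adjusted p = 0.131).

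Of the Dickkopf genes, *Dkk1* (ENSMUSG00000024868, mm10 chr19:30545863-30549665), an inhibitor needed for head formation and itself induced by Wnt signalling, was DE by embedding time in 1.0 mM gels. With 1.0 mM gels it stood at 60.9, 67.0 and 56.6 CPM in the 72 h group and at 30.9, 29.3 and 20.1 CPM in the 96 h group. The values with 1.5 mM gels were 64.6, 52.8 and 52.1 CPM and 44.2, 59.6 and 31.2 CPM. The embedding times were apart in 1.0 mM gels and overlapped in 1.5 mM gels, where replicate 2 of the 96 h group was above 2 of the 72 h libraries. The difference was 1.21 in 1.0 mM gels (SE 0.15, 95% interval 0.89 to 1.53, edgeR adjusted p = 0.000623) and 0.33 in 1.5 mM gels (SE 0.19, 95% interval -0.11 to 0.76, adjusted p = 0.267). The mean order was 61.5, 56.5, 45.0 and 26.8 CPM, from 72 h in 1.0 mM and 72 h in 1.5 mM to 96 h in 1.5 mM and 96 h in 1.0 mM, and only the last group did not overlap its neighbour.

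*Dkk3* (ENSMUSG00000030772, mm10 chr7:112116017-112159057) was among the rarer members, with 17 to 73 counts per library. With 1.0 mM gels it stood at 3.09, 1.96 and 2.04 CPM in the 72 h group and at 1.65, 0.682 and 1.40 CPM in the 96 h group. The values with 1.5 mM gels were 2.62, 1.83 and 1.66 CPM and 1.76, 1.28 and 0.974 CPM. The embedding times were apart in 1.0 mM gels and overlapped in 1.5 mM gels. The difference was 0.92 in 1.0 mM gels (SE 0.33, edgeR adjusted p = 0.116) and 0.59 in 1.5 mM gels (SE 0.29, adjusted p = 0.184). *Dkk2* (ENSMUSG00000028031, mm10 chr3:132085292-132180304) had 9, 2 and 11 counts in the 72 h group and 5, 5 and 10 in the 96 h group with 1.0 mM gels, and 3, 9 and 5 and 4, 4 and 5 with 1.5 mM gels. A difference between groups was not detectable for *Dkk2* at this depth, with 0.38 (SE 0.45) across both gels in a fit without the filter.

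**Figure D2:**
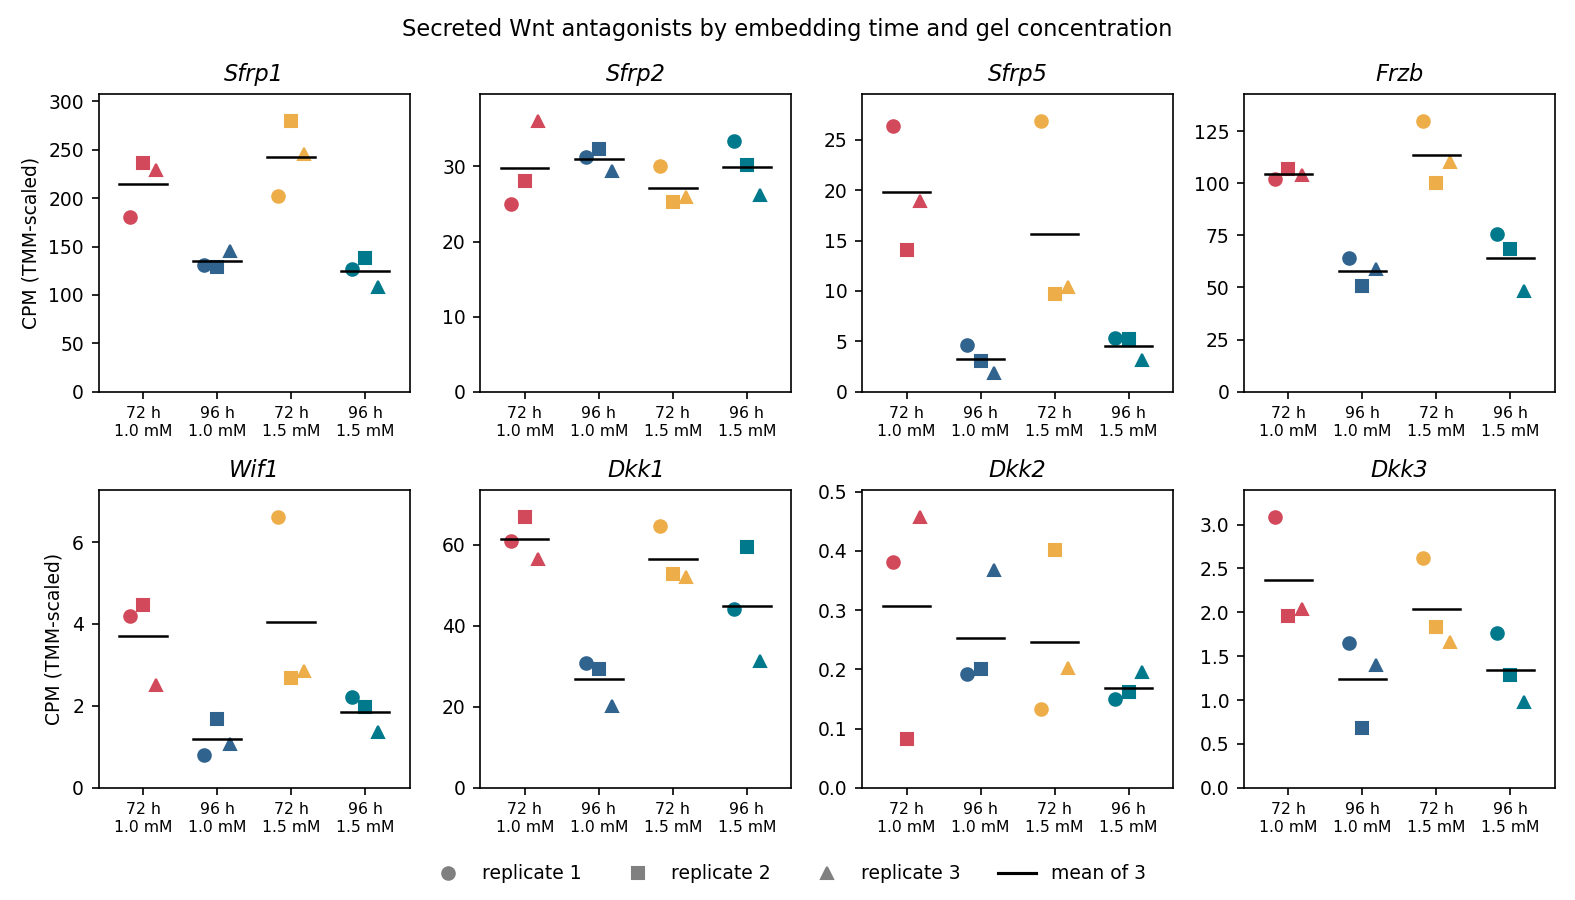
Each panel plots the CPM of 1 antagonist (vertical axis from 0, TMM-scaled) in the 4 groups, with a point for each library, its shape giving the replicate number, and a line at the mean of 3. The 72 h points lie above the 96 h points in both gels for *Sfrp1*, *Sfrp5*, *Frzb* and *Wif1*, in 1.0 mM gels also for *Dkk1* and *Dkk3*, and in neither gel for *Sfrp2*.

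The comparison of embedding times asks how a longer stay in the gel, started earlier, went with transcript levels. In 1.0 mM gels, *Sfrp5*, *Wif1* and *Dkk1* were differentially expressed (DE, with an adjusted p under 0.05 and a log2 fold change past 1 in either direction), all higher after embedding at 72 h. These are 3 of 7 members tested, beside 2.61% of all genes tested that were DE in that direction. With *Sfrp1* and *Frzb*, 5 of 7 passed the test on adjusted p alone (5.97% of all genes in that direction), and the 3 libraries of each group did not overlap for 6 of 7 (14.6% of all genes). In 1.5 mM gels, *Sfrp5* alone was DE, 1 of 7 beside 1.61% of all genes. *Sfrp1*, *Sfrp5* and *Frzb* passed on adjusted p, 3 of 7 beside 10.4%, and 4 of 7 did not overlap, beside 20.0%. In the order of the 4 group means, the only neighbours whose libraries did not overlap were a 72 h and a 96 h group for *Sfrp1*, *Sfrp5*, *Frzb* and *Wif1*, the 2 groups embedded at 96 h for *Dkk1*, and none for *Sfrp2* and *Dkk3*. With the replicate number as a block, 2 of 7 members were DE in 1.5 mM gels, *Sfrp5* and *Wif1*, beside 3.46% of all genes DE in either direction in that fit.

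The fit over all 12 libraries, with gel concentration as a term, shares its libraries with these comparisons. *Sfrp5* was higher after 72 h embedding by 2.19 (SE 0.30, 4.56-fold, edgeR adjusted p = 9.29e-05) and *Wif1* by 1.37 (SE 0.26, 2.59-fold, adjusted p = 0.00138). These were the 2 DE members of 7, beside 2.36% of all genes DE in that direction. *Frzb* (0.84), *Sfrp1* (0.82), *Dkk1* (0.76, adjusted p = 0.00442) and *Dkk3* (0.76, adjusted p = 0.0207) passed on adjusted p, so that 6 of 7 members passed, beside 16.2% of all genes. The median of the 7 was 0.82 and that of all genes tested -0.0072. The *Dkk3* call was lost without replicate 1 of either 72 h group or replicate 3 of the 96 h group in 1.5 mM gels (adjusted p 0.0537, 0.0521 and 0.0504).

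**Figure D3:**
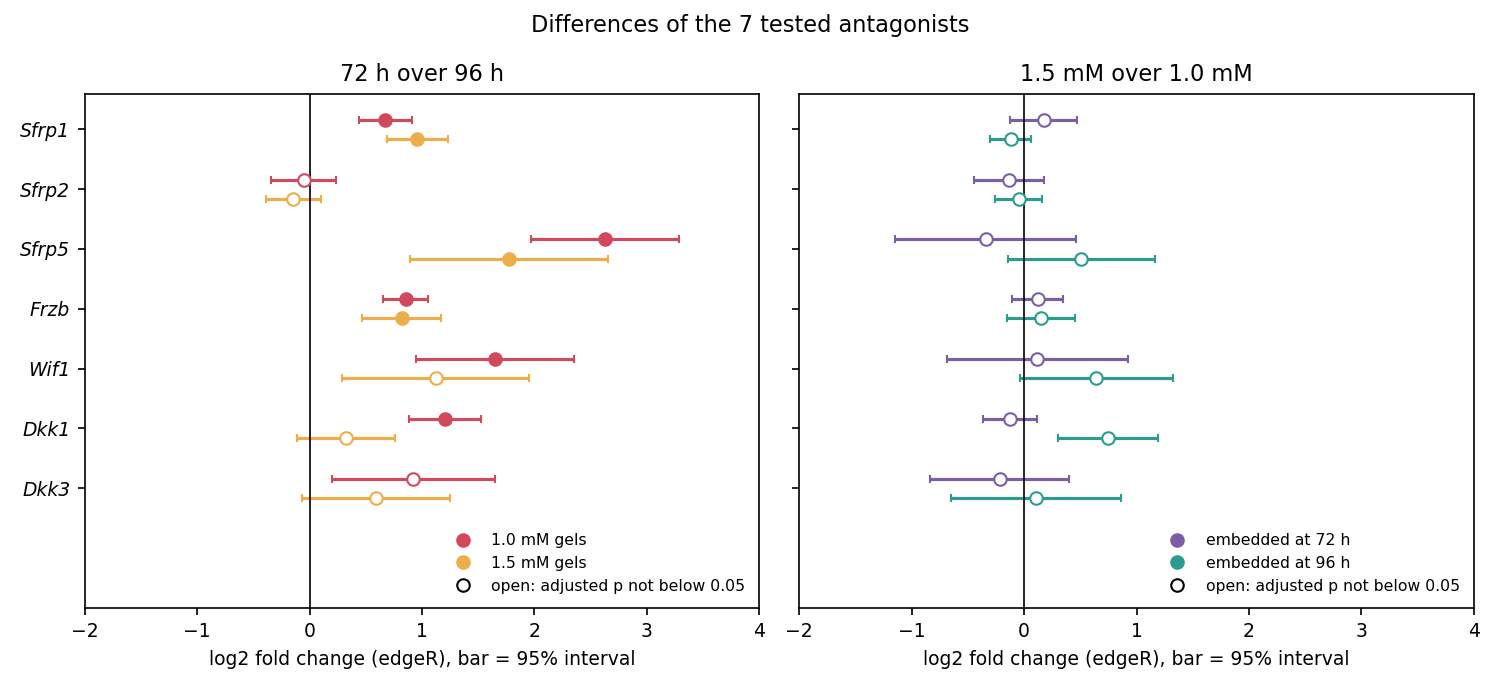
Points give the log2 fold change of the 7 tested antagonists with 95% intervals from edgeR, on the left for 72 h over 96 h in each gel and on the right for 1.5 mM over 1.0 mM at each embedding time, filled where the adjusted p is below 0.05. On the left *Sfrp5* has the largest values (2.63 and 1.77) and the intervals of *Sfrp2* (-0.05 and -0.15) include 0, and on the right every point is open and *Dkk1* at 96 h (0.75) lies farthest to the right.

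The comparison of gel concentrations asks whether the stiffer gel went with different levels. After embedding at 72 h no member passed the test in edgeR, DE genes making up 0.00% of all genes tested. At an unadjusted p below 0.05 it was 0 of 7 members and 1074 of 15563 genes, and limma-voom called 0 genes and DESeq2 3, none a member. The values (log2, 1.5 mM over 1.0 mM) ran from -0.34 for *Sfrp5* (95% interval -1.15 to 0.47) to 0.17 for *Sfrp1* (95% interval -0.13 to 0.47). With the replicate number as a block, 16 genes were DE, none a member.

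After embedding at 96 h no member passed either, again with 0.00% of all genes DE in edgeR, 0 in limma-voom and 9 in DESeq2, none a member. *Dkk1* was the single member with an unadjusted p below 0.05, as were 1578 of 15861 genes. Its libraries were at 20.1 to 30.9 CPM in 1.0 mM gels and 31.2 to 59.6 CPM in 1.5 mM gels, without overlap, as for 7.46% of all genes higher in 1.5 mM. The difference was 0.75 (SE 0.20, 95% interval 0.30 to 1.19, adjusted p = 0.282). With the replicate number as a block, *Dkk1* passed the test, at 0.73 (adjusted p = 0.000183), and 51 genes were DE, *Dkk1* not among them as its value is below 1. Without replicate 3 of the 96 h group in 1.5 mM gels, the adjusted p of *Dkk1* was 0.0483 at 0.95, and without replicate 2 it was 0.75 at 0.50. *Wif1* (0.64, 95% interval -0.04 to 1.32) and *Sfrp5* (0.51, 95% interval -0.14 to 1.16) had the next largest values, and neither passed.

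Over both embedding times, no member passed for gel concentration, and 1 of 16388 genes was DE (0.00610%, with 0.0305% past the adjusted p alone). At an unadjusted p below 0.05 it was 0 of 7 members and 2075 genes, with 9 genes DE by DESeq2 and 0 by limma-voom. Whether the difference between embedding times itself differed between gels was tested as an interaction (1.5 mM minus 1.0 mM). No member passed in edgeR, and 0.00% of all genes were DE, with 0 by DESeq2 and 0 by limma-voom. *Dkk1* had an interaction of -0.87 (SE 0.27, 95% interval -1.45 to -0.29, adjusted p = 0.953) and was the 1 member of 7 with an unadjusted p below 0.05, as were 708 of 16388 genes. The value of *Sfrp5* was -0.85 (95% interval -2.04 to 0.34) and that of *Frzb* -0.03 (95% interval -0.45 to 0.39). A difference between gels in the effect of embedding time was thus not shown for any member.

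Cell type markers moved with these results. The sum of 12 cardiac and anterior-mesoderm markers ran from 666 to 1210 CPM after 72 h and 105 to 279 CPM after 96 h embedding in 1.0 mM gels, and from 540 to 1020 CPM and 274 to 437 CPM in 1.5 mM gels. Of the 12, all with counts in every library, 12 were DE higher at 72 h in 1.0 mM gels, 4 in 1.5 mM gels and 10 across both. The shares of all genes tested were 2.61%, 1.61% and 2.36%. The 11 somite and sclerotome markers went the other way, with 353 to 623 CPM against 1030 to 1180 CPM in 1.0 mM gels and 450 to 698 CPM against 856 to 1110 CPM in 1.5 mM gels. Of these 6 were DE lower at 72 h across both gels, as were 4 of 6 naive pluripotency markers, which summed to 19.2 to 27.6 CPM at 72 h and 52.1 to 92.6 CPM at 96 h. Of all genes tested, 4.66% were DE in either direction across both gels. Across both gels, 0 presomitic mesoderm markers were DE higher and 1 lower (of 6 tested), as were 0 and 1 for neural tube (of 7), 0 and 0 for endoderm (of 7) and 0 and 0 for endothelium (of 7). Of these, *Msgn1* and *Msx3* were near 0, with at most 3 and 4 counts. The neural tube sum was higher at 72 h in both gels, with 122 to 142 CPM against 98.1 to 119 CPM in 1.0 mM gels. In 1.5 mM gels it was 134 to 155 CPM against 107 to 128 CPM. The sums are unweighted, and *Irx3*, with the highest mean of that list (75.3 CPM), was higher at 72 h across both gels (0.63). Of the 7 neural tube markers tested only 2 were higher, with a median of -0.50. The endoderm and endothelium sums were likewise made up mostly of 1 gene each, *Trh* (mean 196 CPM) and *Kdr* (mean 183 CPM). On adjusted p, 2 neural tube markers passed higher and 3 lower across both gels, beside 31.1% of all genes passing in either direction. The DE one, *Olig2*, had 0 to 41 counts. The part of the marker lists in the results on the antagonists was not tested.

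*Sfrp5* went with the cardiac and anterior-mesoderm sum library by library. Replicate 1 had the highest sum in both 72 h groups (1209 CPM against 666 and 744 CPM in 1.0 mM gels, 1016 CPM against 540 and 568 CPM in 1.5 mM gels), and it had the highest *Sfrp5* and the lowest *Sfrp1* there. Over the 12 libraries Pearson's r of log2 values with that sum was 0.963 for *Sfrp5*, 0.932 for *Dkk1*, 0.854 for *Wif1*, 0.838 for *Frzb*, 0.753 for *Dkk3* and 0.597 for *Sfrp1*. With each group's mean taken off it was 0.946 for *Sfrp5*, 0.721 for *Dkk1*, 0.462 for *Wif1*, 0.455 for *Frzb*, 0.416 for *Dkk3* and -0.52 for *Sfrp1*. Other lists went with the members as well. *Sfrp5* had an r of -0.948 with the somite and sclerotome sum (-0.71 with group means taken off). That sum gave -0.886 for *Wif1*, -0.877 for *Frzb* and -0.854 for *Dkk3* (-0.682, -0.471 and -0.665 with group means taken off). For *Dkk1* it gave -0.802 (-0.402), and for *Sfrp1* -0.69, which turned to 0.577. The naive pluripotency sum gave -0.82 for *Sfrp5*, -0.873 for *Frzb*, -0.742 for *Dkk1*, -0.616 for *Dkk3* and -0.788 for *Wif1*. With group means taken off, these changed sign to 0.65, 0.522, 0.656, 0.61 and 0.414. The endoderm sum gave -0.14 for *Frzb* and 0.229 for *Dkk3*, and 0.761 and 0.793 with group means taken off. For *Sfrp1* the r was -0.895 with the naive pluripotency sum, 0.785 with neural tube, 0.752 with presomitic mesoderm and -0.203 with endothelium. With group means taken off these were -0.288, 0.478, 0.739 and -0.764. The points share the same libraries and the group difference, so these values are a description. Without replicate 1 of both 72 h groups, an alternative added after seeing the data, the difference over both gels was 1.76 for *Sfrp5* (edgeR adjusted p = 0.000411), 1.06 for *Wif1* (0.0105), 0.93 for *Sfrp1* (4.19e-06), 0.79 for *Frzb* (0.000163) and 0.72 for *Dkk1* (0.0189), and 0.53 for *Dkk3*, which no longer passed (0.127).

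**Figure D4:**
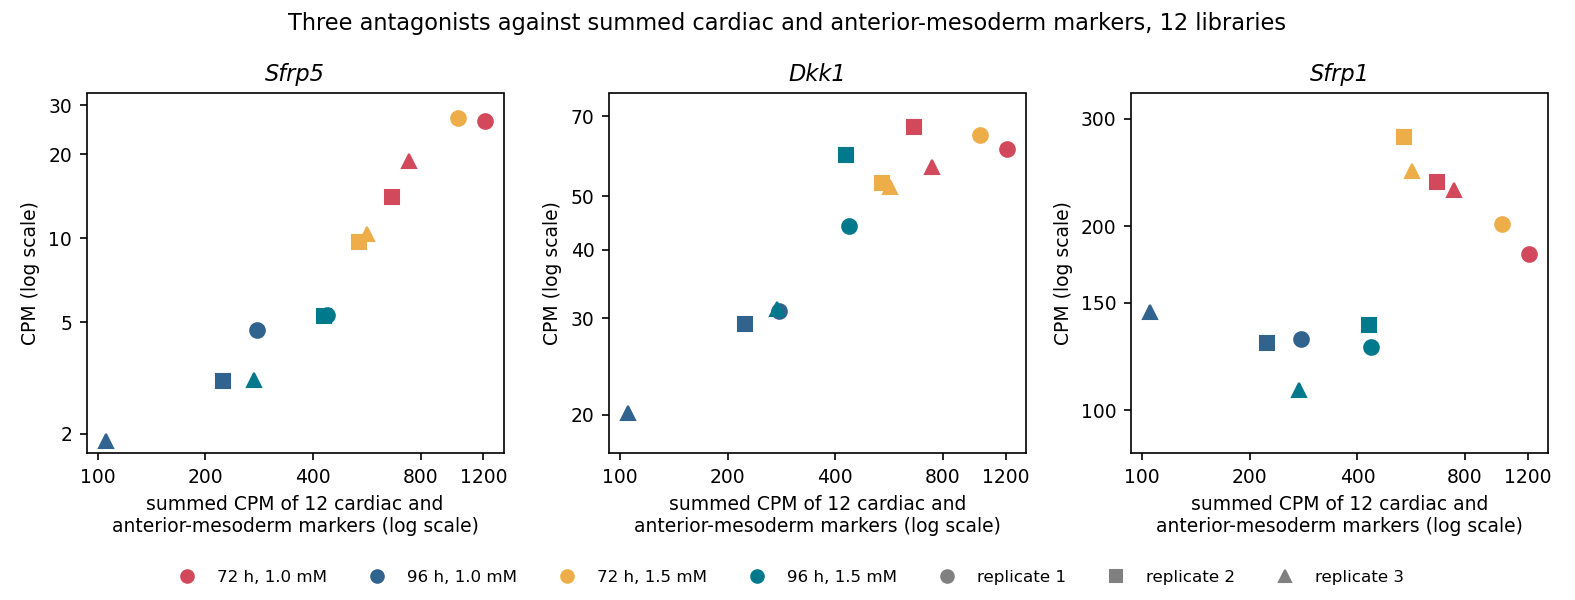
Each point is a library, with the summed CPM of 12 cardiac and anterior-mesoderm markers on the horizontal axis and the CPM of *Sfrp5*, *Dkk1* or *Sfrp1* on the vertical axis, both logarithmic. *Sfrp5* follows the sum across and within groups (r = 0.963 over 12 libraries), whereas *Sfrp1* falls into a 72 h and a 96 h cloud and is lowest, among the 72 h libraries, in the pair with the highest sums.

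The rest of the Wnt pathway was taken from 5 lists, over both gels and as 72 h over 96 h. Of 12 genes tested from the list named other Wnt antagonists, *Cer1*, which encodes a secreted antagonist of the anterior endoderm and mesoderm, was DE (1.21, SE 0.36, edgeR adjusted p = 0.0188). Its place on the list does not show that mouse *Cer1* acts on Wnt proteins, which was not tested. *Cer1* was at 58.0 ± 41.4 CPM (SD, n = 3) in the 72 h group and 35.4 ± 8.06 CPM (SD, n = 3) in the 96 h group with 1.0 mM gels. With 1.5 mM gels *Cer1* was at 103 ± 57.1 CPM (SD, n = 3) against 31.4 ± 17.0 CPM (SD, n = 3) and DE (1.70, adjusted p = 0.0284), while in 1.0 mM gels the value was 0.71 (adjusted p = 0.285). Of the 12, 3 passed higher and 2 lower, and the list's median was 0.05, beside 0.82 for the 7 members and -0.0072 for all genes. Of 13 ligands, 5 passed higher and 1 lower. Of all genes tested, 31.1% passed in either direction and 16.2% passed higher. *Wnt2*, a ligand of the heart and lung mesoderm, was higher by 2.10 (SE 0.40, adjusted p = 0.00123) and *Wnt2b* by 1.89 (SE 0.47, adjusted p = 0.00697), and *Wnt8a*, a posterior ligand, was lower by 1.48 (-1.48, adjusted p = 0.00566). *Wnt2b* and *Wnt8a* were below 2 CPM in every group mean. *Wnt2b* did not pass the filter on low counts in 1.0 mM gels and was DE in 1.5 mM gels (2.72, edgeR adjusted p = 0.0205). *Wnt8a* was DE in 1.0 mM gels (-1.85, adjusted p = 0.0132) and did not pass in 1.5 mM gels (-1.06, adjusted p = 0.181).

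Of 17 receptors and co-receptors tested, 7 passed higher and 2 lower and none was DE, with a median of 0.13. For this list and those that follow, the share of all genes tested that passed was 31.1% in either direction (16.2% higher). Among R-spondins and their receptors, 6 of which were tested, the receptor *Lgr5* was higher (1.13, SE 0.15, edgeR adjusted p = 6.99e-05) and the ligand *Rspo2* lower (-1.03, SE 0.25, adjusted p = 0.00672). Of 13 genes commonly used as Wnt targets, 2 passed higher and 3 lower, with a median of -0.15. *T*, the Brachyury gene of the primitive streak and notochord, was higher (1.30, SE 0.10, adjusted p = 6.44e-07), and *Cdx1*, a posterior homeobox gene (-1.67, adjusted p = 0.00207), and *Myc* (-1.25, adjusted p = 5.94e-07) were lower. Group means were only 0.2995 to 0.974 CPM for *Rspo2* and 0.182 to 0.855 CPM for *Cdx1*, and neither passed the filter on low counts in 1.5 mM gels. In 1.0 mM gels *Rspo2* did not pass the test (-1.075, edgeR adjusted p = 0.0913), while *Cdx1* was DE (-2.01, adjusted p = 0.0105). No gene of these lists was DE between gel concentrations in edgeR, at either embedding time or over both.

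**Figure D5:**
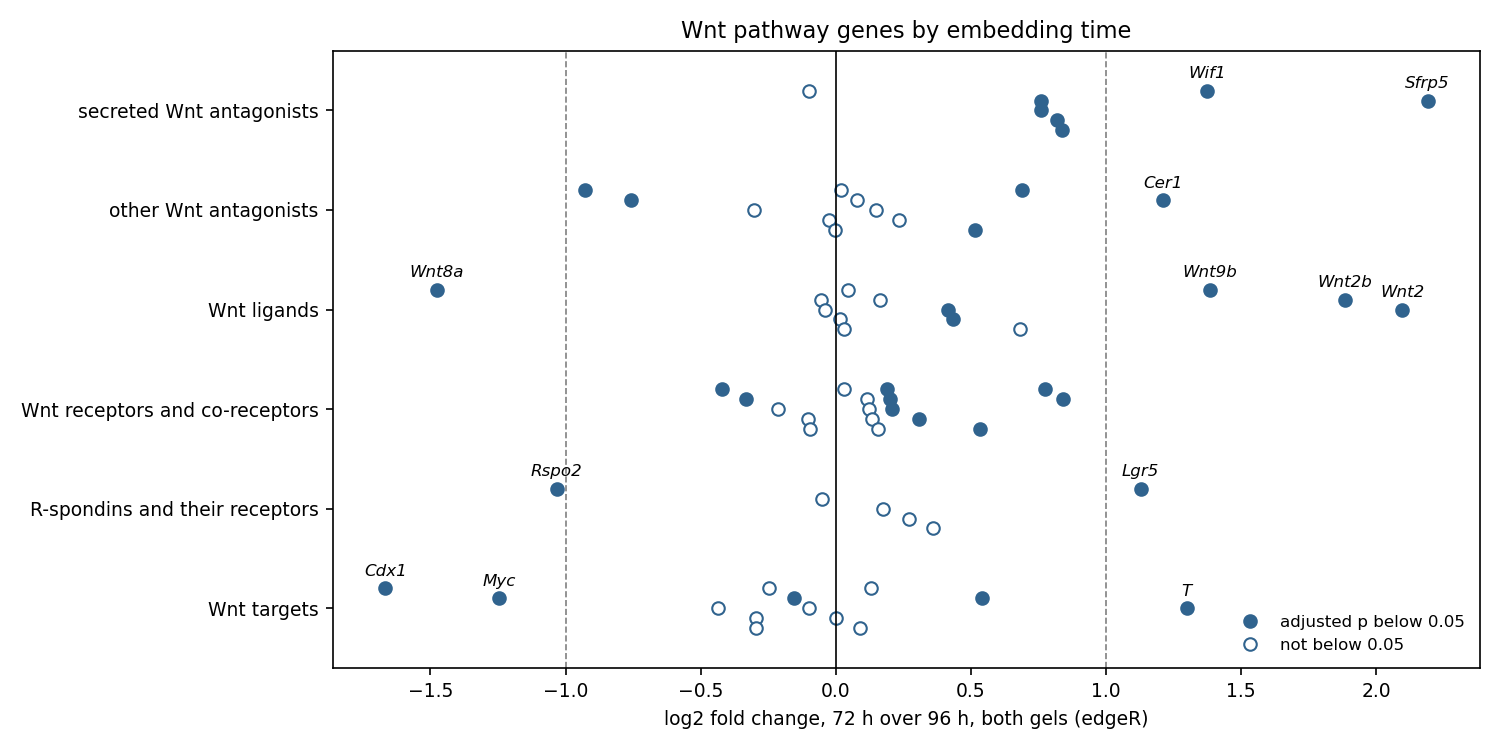
Points give the log2 fold change (72 h over 96 h, both gels, edgeR) of each tested gene of 6 Wnt lists, filled where the adjusted p is below 0.05, with dashed lines at -1 and 1 and names on the DE genes. The secreted antagonists, with 6 of 7 filled points to the right of 0, have a median of 0.82, and the medians of the other lists lie between -0.15 and 0.22.

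The genes most like each member over the 12 libraries were sought by Pearson's r of log2 CPM among 11343 genes that averaged 100 counts or more. *Sfrp5* was most like *Adra2b* (0.99), *Schip1* (0.989) and *Smtnl2* (0.988), *Sfrp1* like *Elmo1* (0.983), *Ptprt* (0.979) and *Trp53i11* (0.974), and *Frzb* like *Atp2b4* (0.978), *Igfbpl1* (0.972) and *Itga8* (0.971). *Dkk1* was most like *Bambi* (0.976), *Gata6* (0.957) and *Foxf1* (0.954), of which *Gata6* is on the cardiac list. *Sfrp2*, with little difference between groups, reached *Carm1* (0.909), *H3f3a* (0.893) and *Tspan3* (0.888). Among the members, the pair with the highest r was *Sfrp5* and *Frzb* (0.91), and *Sfrp1* and *Sfrp5*, at 0.703 over the 12 libraries, stood at -0.541 once each group's mean was taken off. All these values share the group differences and the same libraries.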

How the data were processed

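RNA was measured in 12 libraries of paired-end 75 bp reads, in 4 groups of 3 named by the sample labels. The study describes its replicates as biological and independent, and p-values measure the spread between these pools of gastruloids. The deposited counts are whole reads per Ensembl gene without normalization, which the authors obtained by trimming and then aligning with STAR (genome mm10, customized gene models). The submitters' processing notes name cutadapt 4.4, STAR 2.7.10b and Cufflinks 2.2.1.3. The libraries were stranded, and the strand setting of the counting is not given in the sources used here. The authors also deposited FPKM values from Cufflinks. A deposited table of the authors' own comparisons (log2 fold changes and adjusted p-values) was not used.

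The 8 members, the 12 other lists and the tests were chosen with earlier results of these data known. Named genes are the members, up to 3 DE genes of largest change per pathway list, and the 3 most similar genes for the 5 members with a mean of at least 100 counts. Counts were tested with edgeR 4.0.16 in R 4.3.3 (TMM, filterByExpr with minimum count 10 and minimum total 15, glmQLFit and glmQLFTest, Benjamini-Hochberg over all genes tested), with the 36 mitochondrial genes left out. SEs were derived from the F statistic. Pairwise fits used the 6 libraries compared, and the others all 12. The fit was also run on counts simulated from its own fitted means and dispersions, without a replicate effect, so that run does not check the calls made here. Alternatives were DESeq2 1.42.0, limma-voom and limma-trend on log2 FPKM (limma 3.58.1), other normalizations and filters, a replicate block and each library left out. For well-counted genes precision is set by the 3 replicates rather than by depth (23011791 to 27609422 counts). For the rare *Dkk2* (2 to 11 counts per library), *Dkk3* (17 to 73) and *Wif1* (21 to 149), low counts limit it as well.

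Same-numbered replicates were checked for pairing by the correlation of their deviations from the group means. Every pair was above 0.1 for embedding time in 1.5 mM gels (0.182 to 0.39), gel at 72 h (0.123 to 0.322) and gel at 96 h (0.113 to 0.51), so blocked values are given there where they change a call. In 1.0 mM gels 2 of 3 pairs were above 0.1, and over all 12 libraries 17 of 18. Gene positions were taken from the deposited FPKM table (mm10), and promoter sequences are from RefSeq on GRCm38.p6.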

Additional observations from a re-analysis of the deposited data

How the results depend on the processing

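*Dkk2* had too few counts to pass the filter. The 3 members DE in 1.0 mM gels were 5 without a fold-change threshold and 2 (*Dkk1* and *Sfrp5*) on log2(FPKM + 1), filtered or not. In limma-trend on log2(FPKM + 1) with no filter, *Wif1* (0.681, adjusted p = 0.106) and *Sfrp1* (0.627, adjusted p = 0.055) no longer passed in 1.0 mM gels. In that FPKM fit *Sfrp5* (1.27, adjusted p = 0.105) and *Frzb* (0.805, adjusted p = 0.0632) did not pass in 1.5 mM gels. Nor did *Dkk3* (0.201, adjusted p = 0.0733) across both. In 1.5 mM gels the 1 DE member was 2 with DESeq2, with no filter on low counts, with the replicate block or with all 12 libraries in a single fit (*Sfrp5* and *Wif1*), 3 without a fold-change threshold, 0 on log2(FPKM + 1) with no filter, and 0 to 2 with a library left out (0 without replicate 3 of the 96 h group). Across both gels the 2 DE members were 6 without a fold-change threshold and 1 (*Sfrp5*) on log2(FPKM + 1), filtered or not, a scale that understates low genes. Counts of DE genes over all genes moved by over 1.5 times on the FPKM scales (678 to between 90 and 273 in 1.0 mM gels, 498 to between 57 and 223 in 1.5 mM gels, 763 to between 116 and 305 across both), and to 429 without replicate 3 of the 96 h group in 1.0 mM gels and 298 without replicate 3 of that in 1.5 mM gels. For gel at 72 h, at 96 h, over both times and for the interaction, DESeq2 gave 3, 9, 9 and 0 genes and log2 FPKM 2, 2, 0 and 4, with 12 at 96 h without replicate 3 of the 96 h group in 1.5 mM gels and 2 without its replicate 1. With leave-one-out fits, the 1 gene over both times was 0 to 8. Further, edgeR on counts with no filter gave 56 genes at 72 h, 65 at 96 h and 40 over both times, and 112 for the interaction. There *Dkk1* passed in the last 3 (adjusted p 1.3e-12, 0.00258 and 3.17e-07) and *Sfrp5* in the interaction (0.0291). The cause was not tested.

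Reversals concerned values that had not passed a test. Over both times the gel value of *Sfrp5* (0.02) was -0.194 with limma-voom, -0.0347 with the replicate block, -0.0677 on log2(FPKM + 1) with or without the filter and -0.0118 on log2(FPKM + 0.1). That of *Sfrp1* (0.03) was -0.0135, -0.0135 and -0.0154 on these FPKM scales, and the interaction of *Frzb* (-0.03) was 0.00881, 0.00881 and 0.00782. With each library left out in turn, gel values over both times ran from -0.227 to 0.205 (*Sfrp5*), -0.0391 to 0.0858 (*Sfrp1*) and -0.204 to 0.0671 (*Dkk3*), and interactions from -0.194 to 0.109 (*Frzb*) and -0.193 to 0.0686 (*Sfrp2*). At 72 h the gel values ran from -0.447 to 0.0232 (*Dkk3*), -0.243 to 0.0287 (*Sfrp2*) and -0.439 to 0.343 (*Wif1*), at 96 h from -0.178 to 0.356 (*Dkk3*) and -0.121 to 0.0378 (*Sfrp2*), and the embedding time value of *Sfrp2* in 1.0 mM gels from -0.214 to 0.0577.

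Where the numbers do not pair the samples by the check, all 12 libraries still correlated best with a library of their own number, a hint from the data and not the design. There the replicate block moved *Dkk3* in 1.0 mM gels past the threshold (0.954, adjusted p = 0.0393), moved DE genes for gel over both times from 1 to 7 and for the interaction from 0 to 4, and changed no other call of a member.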
